A study of Mus musculus with 6 samples.

Results

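The Hox genes of the 4 mouse clusters were described in RNA-seq data from embryonic ovaries exposed in utero to panobinostat (PB), an inhibitor of histone deacetylases. Members were taken by symbol alone, as every gene name made of Hox, a cluster letter from a to d and a paralogue number. This gave 39 of the 35974 gene names in the data, with 11 genes in HoxA, 10 in HoxB, 9 in HoxC and 9 in HoxD, and 86 transcripts. Of the transcripts, 75 matched RefSeq models and 11 were assembled from the reads. In mm10 coordinates the genes spanned chr11:96194361-96368254 for HoxB, chr15:102921131-103036856 for HoxC and chr2:74668310-74765142 for HoxD, and HoxA lies on chromosome 6.

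Ovaries were taken at E15.5 (E, embryonic day) from C57Bl6j mice, in 3 control pools and 3 PB pools. The pregnant PB mice received 5 mg/kg PB from E6.5 to E15.5, the embryonic day at which the ovaries were taken. The dose was daily in the labels and on alternate days in the published protocol, and control mice received the vehicle, DMSO and water. A pool held 4 ovaries by the extraction protocol of the labels and 6 to 8 by the series design text, and the published sequencing protocol set a minimum of 8. Libraries were made from whole pools of ovaries, so fewer cells of a type and less RNA per cell cannot be told apart.

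Hox proteins are homeodomain transcription factors that give cells their position along the head-to-tail axis. Within a cluster the genes lie in the order of their paralogue numbers, and the genes at the 3′ end, with low numbers, are switched on earlier and more anteriorly than those at the 5′ end. In the urogenital tract the genes with high numbers pattern the ducts that form beside the gonads. Hox proteins bind DNA together with TALE cofactors of the PBX and MEIS families, and Polycomb and trithorax group proteins maintain the silent and the active state of the clusters. The clusters also hold microRNAs that act on Hox mRNAs.

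Of the mature microRNAs encoded inside the clusters, the 5p arms of the miR-196 and miR-10 genes are shown because they share seeds (bases 2 to 8, in capitals) between clusters. The sequences are from RefSeq on GRCm38.p6, the same assembly as mm10, and the 2 copies of miR-196a, in HoxB and HoxC, share 1 mature sequence.
miR-196a-5p, HoxB and HoxC: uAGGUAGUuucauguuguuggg
miR-196b-5p, HoxA: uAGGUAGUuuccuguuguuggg
miR-10a-5p, HoxB: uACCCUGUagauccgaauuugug
miR-10b-5p, HoxD: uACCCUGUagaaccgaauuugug

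A match to the miR-196 seed (ACTACCT, sense strand only) was present in the longest annotated 3′ untranslated region of 9 of 39 Hox genes (23.1%), against 1288 of 21048 protein-coding genes (6.12%). The genes with a miR-196 match included Hoxa4, Hoxa5, Hoxa7, Hoxa9, Hoxb1, Hoxb6, Hoxb7 and Hoxc8. A match to the miR-10 seed (ACAGGGT, sense strand only) was present in 4 of 39 Hox genes (10.3%), against 12.5% of all genes. The stretch with the most complete pairing to miR-196a was in Hoxb8, where 21 of 22 bases paired by Watson-Crick rules, starting at base 418 of an 845-base region. The bases opposite the seed are in capitals, and the base that does not pair by these rules lies among them, so Hoxb8 was not counted as holding a seed match.
Hoxb8, opposite miR-196a-5p: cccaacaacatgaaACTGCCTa

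The libraries did not measure mature microRNAs. The assembled transcripts named Mir196a-1, in the HoxB span, had 1201, 1482 and 1251 counts in control and 1172, 1452 and 1214 counts in PB. These ranges overlapped. Of the other genes inside the spans, the next most abundant were Mira, in HoxA, with between 483 and 928 counts in a pool, and Gm38462, in HoxD, with between 283 and 341 counts. Hotair, a long non-coding RNA of HoxC, did not pass the filter on low counts.

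The counts of a pool summed to between 97165644 and 125985399. The Hox genes held 0.0206% to 0.0249% of them, between 21571 and 26575 counts. The floor of detection, set at 3 counts, was 0.0248 to 0.0321 CPM (counts scaled to the same library total) depending on the pool. Markers of germ cells, including Ddx4 (between 40.9 and 75.6 TPM), and of pregranulosa cells, including Foxl2 (between 79.4 and 104 TPM), were present in every pool.

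By the mean over the 6 pools, the 9 Hox genes most abundant per length were the HoxC genes from Hoxc4 to Hoxc10 and Hoxd8 to Hoxd10. Levels were summed over all transcripts of a gene name, which for Hoxc9 included a transcript on the opposite strand. The level was measured in TPM, which divides counts by exon length and scales every pool to the same total, and so allows genes to be compared. Of the 39 genes, 25 had a mean of at least 1 TPM over the 6 pools, 3 had at least 10 TPM, and the 12 most abundant genes held 78.5% of the summed Hox level. Hoxd9 is among the first 9 by its mean of 7.78 TPM only. Its median over the pools, 3.05 TPM, was below that of Hoxb7 (3.92 TPM). The summed level was 129 ± 18.8 TPM in control and 143 ± 16.2 TPM in PB (SD, n = 3 pools each).

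Hoxd8 was the most abundant Hox gene, at 17.2, 16.1 and 19.1 TPM in the control pools and 19.6, 18.5 and 18.6 TPM in the PB pools. Hoxc8 followed at 15.2, 17.1 and 17.2 TPM in control and 16.4, 18.2 and 18.5 TPM in PB. The ranges of both groups overlapped for each gene, and the ranges of the 2 genes overlapped as well. In contrast, 35 of the other Hox genes were in every pool below the lowest Hoxc8 pool, and likewise for Hoxd8. Both genes belong to paralogue group 8, which acts in the trunk.

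Hoxd10, from the 5′ part of HoxD, had a mean of 14.6 TPM but varied widely, at 21.2, 11.5 and 6.84 TPM in control and 17.2, 12.4 and 18.5 TPM in PB. Its neighbour Hoxd9 was at 0.65, 0.13 and 19.2 TPM in control and 1.05, 20.6 and 5.04 TPM in PB. The high and low pools of Hoxd9 did not follow the groups, and both genes are taken up again with their locus.

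The remaining abundant genes of HoxC varied far less. Hoxc5 was at 8.14, 8.39 and 9.75 TPM in control and 8.13, 9.30 and 10.4 TPM in PB. Hoxc4, at the 3′ end of the cluster, was at 8.57, 8.02 and 8.21 TPM in control and 9.50, 9.11 and 8.66 TPM in PB. The groups did not overlap for Hoxc4 on the TPM scale, on which the median gene of the whole table was higher in PB by 0.11 (log2 ratio of the group means, 19432 genes). The edgeR tests below therefore use counts scaled by TMM, on which the median log2 fold change of all genes was 0.0020.

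Hoxc6 was at 6.64, 5.41 and 7.34 TPM in control and 6.01, 6.79 and 7.44 TPM in PB. Hoxc9 was at 5.26, 5.47 and 5.08 TPM in control and 4.61, 7.31 and 5.75 TPM in PB. Hoxc10 was at 6.52, 5.91 and 6.92 TPM in control and 6.00, 11.1 and 7.51 TPM in PB. The PB 2 pool was the highest for Hoxc9 and Hoxc10, and the groups overlapped for all 3 genes. Most counts of Hoxc9 (95.2%) and Hoxc6 (62.1%) fell on assembled transcripts, which for Hoxc9 include a transcript on the opposite strand with between 242 and 481 counts. That transcript held 40.5% of the counts named Hoxc9, so the Hoxc9 level in TPM and its place in the order depend partly on it.

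Outside HoxC and HoxD, only Hoxb7, Hoxa3 and Hoxa5 were among the 12 most abundant genes. Hoxb7 was at 3.07, 3.64 and 5.08 TPM in control and 4.20, 3.39 and 4.68 TPM in PB, with overlapping groups. Hoxa3, which is needed for the thymus and parathyroid, was at 3.14, 3.19 and 6.38 TPM in control and 3.26, 3.58 and 3.26 TPM in PB. Hoxa5, which patterns the lung and the neck, was at 3.38, 4.10 and 0.28 TPM in control and 4.32, 5.51 and 5.07 TPM in PB. Control 3 was the highest pool for Hoxa3 and the lowest for Hoxa5, and both genes are taken up again with their locus. When the 39 genes were ordered by mean TPM, the ranges over the 6 pools overlapped for all 38 pairs of neighbours, so no neighbours in the order differed beyond their spread.

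**Figure D1:**
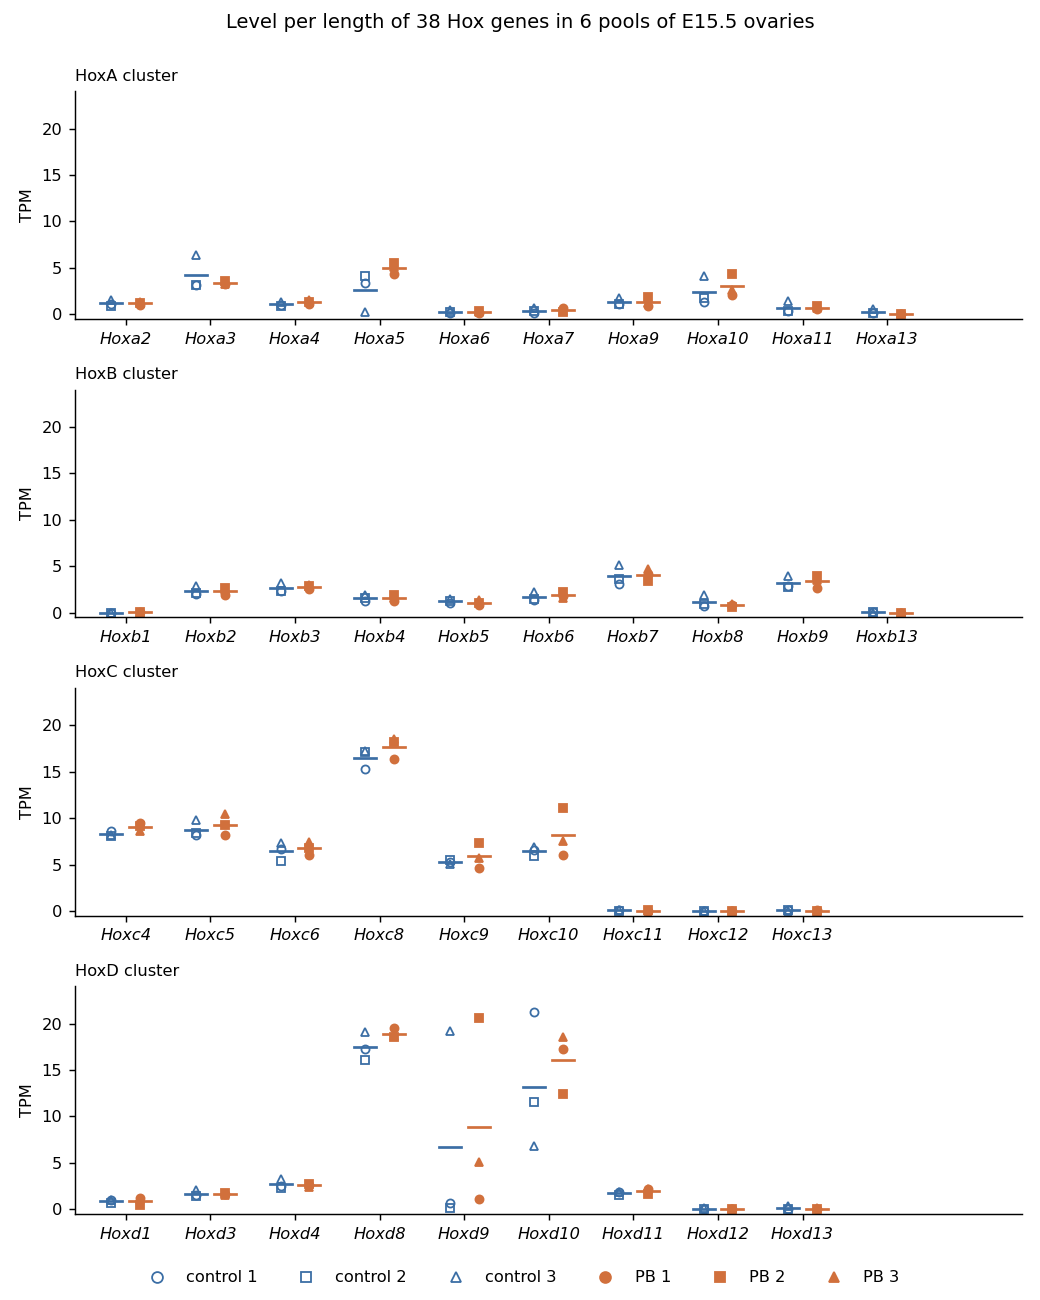
Level in TPM of 38 Hox genes, one panel per cluster, with genes ordered from the 3′ end on the left. Open blue symbols are the 3 control pools, filled orange symbols the 3 PB pools and bars the group means. Hoxd8 and Hoxc8 lie near 17 to 18 TPM in both groups, and Hoxd9 and Hoxd10 are the genes whose pools lie furthest apart.

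By cluster, HoxC held 40.3% of the summed level in the mean of the 6 pools (between 36.5% and 44.4%) and HoxD held 35.1% (between 29.8% and 37.4%). HoxB held 13.1% (between 11.8% and 15.1%) and HoxA 11.5% (between 9.68% and 12.4%). The share of HoxC was 40.6% ± 3.95 in control and 40.0% ± 0.84 in PB (SD, n = 3 each), a difference smaller than the spread between the control pools. The ranges of control and PB overlapped for the summed TPM of each cluster.

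By paralogue number, group 8 was the highest with a mean of 36.3 TPM, or 27.0% of the summed level, followed by group 10 with 24.7 TPM and group 9 with 18.0 TPM. Groups 4 and 5 were at 14.05 and 13.96 TPM. Group 1 was at 1.15 TPM, group 11 at 2.62 TPM, group 12 at 0.056 TPM and group 13 at 0.28 TPM. The mean level did not fall evenly from the 3′ to the 5′ end. Group 9 was at 9.87, 9.46 and 29.98 TPM in control and 9.21, 33.8 and 15.6 TPM in PB, and it was above group 5 only in control 3 and PB 2, the pools highest in Hoxd9. The largest member of group 10 was Hoxd10, with a mean of 14.6 TPM. Transcripts MSTRG.10137.5 and MSTRG.10137.6, which also cover Hoxd9, held 58.4% and 24.6% of the counts named Hoxd10. The sums of groups 9 and 10 and their order therefore depend partly on how reads of this locus were named. Group 8 came almost wholly from Hoxc8 and Hoxd8, since its HoxB member Hoxb8 had a mean of 0.97 TPM. Summed over the members of a group, control and PB overlapped in TPM in all groups but group 13, which is described with control 3. The members of group 13 were all below the filter on low counts. Of all single genes tested, 10.7% had groups that did not overlap in CPM.

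**Figure D2:**
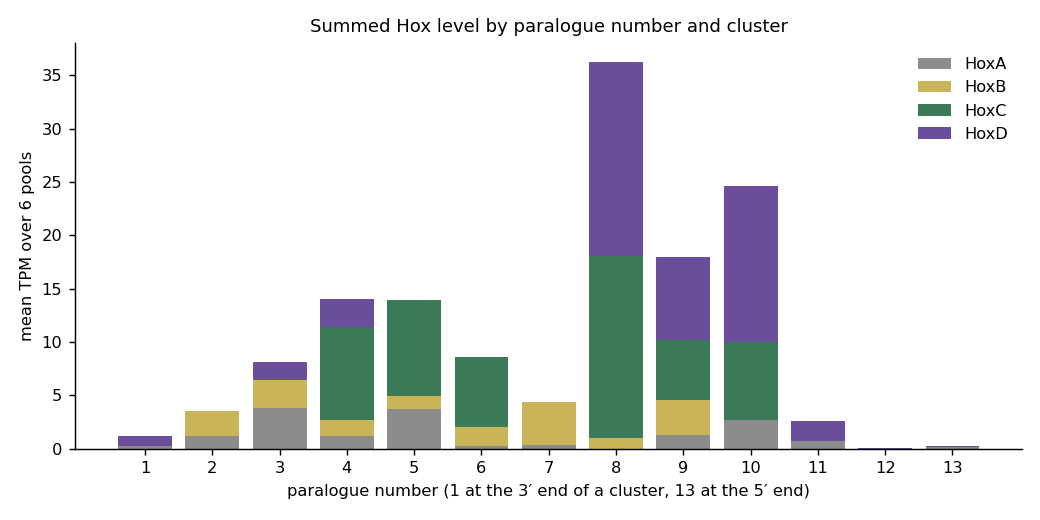
Mean TPM over the 6 pools, summed by paralogue number on the horizontal axis and stacked by cluster. The tallest column is group 8, at 36.3 TPM and almost wholly from HoxC and HoxD, and groups 12 and 13 are close to 0.

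Promoter windows (250 bases before to 50 after a RefSeq start, GRCm38.p6) were found for 22 of the 39 genes, 24 windows in all. Those of Hoxc4, with a mean of 8.68 TPM, and Hoxd12, with a mean of 0.056 TPM and the lowest of HoxD, are shown because they belong to an abundant and a scarce gene and their starts are those of measured transcripts. The start of the Hoxc4 window is that of NM_013553.2, which held most Hoxc4 counts (between 915 and 1155 in a pool), and the start of the Hoxd12 window is that of NM_008274.3, its only transcript. CG dinucleotides are in capitals. The Hoxc4 window lies on the plus strand at chr15:103034145-103034444 and holds 9 CG. The Hoxd12 window lies on the plus strand at chr2:74674763-74675062 and holds 13 CG.
Hoxc4: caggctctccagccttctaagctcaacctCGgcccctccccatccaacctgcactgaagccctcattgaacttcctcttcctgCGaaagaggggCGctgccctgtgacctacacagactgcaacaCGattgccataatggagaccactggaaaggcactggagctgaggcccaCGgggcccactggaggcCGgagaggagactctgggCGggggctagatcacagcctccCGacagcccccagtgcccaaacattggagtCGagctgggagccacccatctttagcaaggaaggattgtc
Hoxd12: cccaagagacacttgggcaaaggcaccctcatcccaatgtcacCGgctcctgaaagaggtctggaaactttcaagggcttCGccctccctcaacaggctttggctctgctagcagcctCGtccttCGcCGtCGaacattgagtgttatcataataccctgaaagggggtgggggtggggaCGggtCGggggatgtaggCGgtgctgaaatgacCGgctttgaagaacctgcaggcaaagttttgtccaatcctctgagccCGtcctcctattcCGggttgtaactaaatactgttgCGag

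Over the 24 Hox windows the median number of CG dinucleotides was 14.5 (range 4 to 45), against a median of 7 over all 32851 windows (quartiles 3 and 20). Searched on both strands, TATAAA occurred in 4 of the 24 windows (13.6% of all windows), CCAAT in 15 (37.4% of all windows), GGGCGG in 10 (35.7% of all windows) and the HOX-PBX composite TGATTNAT in 2 (3.22% of all windows). These matches describe the letters of the windows only.

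None of the Hox genes was called between PB and control. The test was the quasi-likelihood test of edgeR on gene sums, with calls at a change of 2-fold or more and a Benjamini-Hochberg adjusted p of at most 0.05 over all genes tested. Of the 39 Hox genes, 31 passed the filter on low counts and 0 were called, against 3 of 19435 genes (0.0154%). At an unadjusted p under 0.05, 0 of the 31 genes passed in this edgeR fit, against 4.46% of all genes, and the smallest adjusted p was 0.888. The DESeq2 Wald test called 0 of 35 Hox genes (0.0536% of all genes), with 2 at an unadjusted p under 0.05 (4.38% of all genes).

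Of these Hox genes, 12 had a log2 fold change above 0 and 19 below 0, with a median of -0.02. Over all genes, 50.7% were above 0 and 49.3% below. None of the 31 had a fitted change of 2-fold or more, against 2.45% of all genes. The 95% interval of the log2 fold change lay within a 2-fold change in either direction for 21 of 31 Hox genes, against 76.5% of all genes. The groups did not overlap in CPM for 1 of the 31 genes, against 10.7% of all genes.

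The narrowest intervals were those of Hoxd8, Hoxc4, Hoxc8 and Hoxc5, 4 of the 5 most abundant genes. For Hoxd8 the log2 fold change was 0.00 (SE 0.06), with a 95% interval of the fold from 0.908 to 1.11. Hoxc4 (log2 fold change 0.01, SE 0.08) and Hoxc8 (-0.01, SE 0.10) had intervals of the fold from 0.876 to 1.16 and from 0.844 to 1.17. For Hoxc5 (-0.02, SE 0.11) the interval was 0.814 to 1.19. For these 4 genes a change of the size of the calling threshold lay outside the interval.

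The other abundant genes of HoxC and HoxB had log2 fold changes of 0.05 (SE 0.17) for Hoxc6, 0.09 (SE 0.24) for Hoxc9, 0.25 (SE 0.24) for Hoxc10 and -0.05 (SE 0.20) for Hoxb7, and their intervals also stayed within 2-fold. For Hoxc10 the edgeR adjusted p was 0.888. Without PB 2, the pool in which Hoxc10 was highest, its log2 fold change was -0.07.

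Among the genes below 0, the smallest p-values included those of Hoxa3 and Hoxb8. Hoxb8, a gene of the trunk that is also active in blood and nerve cells, had 119, 192 and 287 counts in control and 138, 100 and 170 counts in PB. Control 3 was the highest pool, and the other pools of both groups were mixed. Its log2 fold change was -0.62 (SE 0.37, edgeR adjusted p = 0.888) and moved to -0.17 without control 3. Without control 1 it was -0.87 (edgeR unadjusted p = 0.041, adjusted p = 0.970). For Hoxa3 the log2 fold change was -0.64 (SE 0.36, edgeR adjusted p = 0.888). Hoxa3 had 761, 983 and 1765 counts in control and 681, 924 and 748 counts in PB. The Hoxa3 change moved to -0.13 without control 3 and to -0.87 without control 1 (edgeR unadjusted p = 0.048, adjusted p = 0.970). With all pools, the DESeq2 unadjusted p of Hoxa3 was 0.040 and the adjusted p was 0.99997.

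Among the genes above 0, the smallest p-values were those of Hoxa4, Hoxc10 and Hoxa5. Hoxa4 had 98, 121 and 120 counts in control and 103, 134 and 174 counts in PB, and the groups overlapped. Its log2 fold change was 0.22 (SE 0.21, edgeR adjusted p = 0.888). For Hoxa5 the log2 fold change was 0.80 (SE 0.79, edgeR adjusted p = 0.890), and its 95% interval ran from -1.11 to 2.70. Without control 3, which held 32 Hoxa5 counts while the other pools held between 422 and 703, it was 0.26. Over the fits that left out each pool in turn, the Hoxa5 change reached 1.35.

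**Figure D3:**
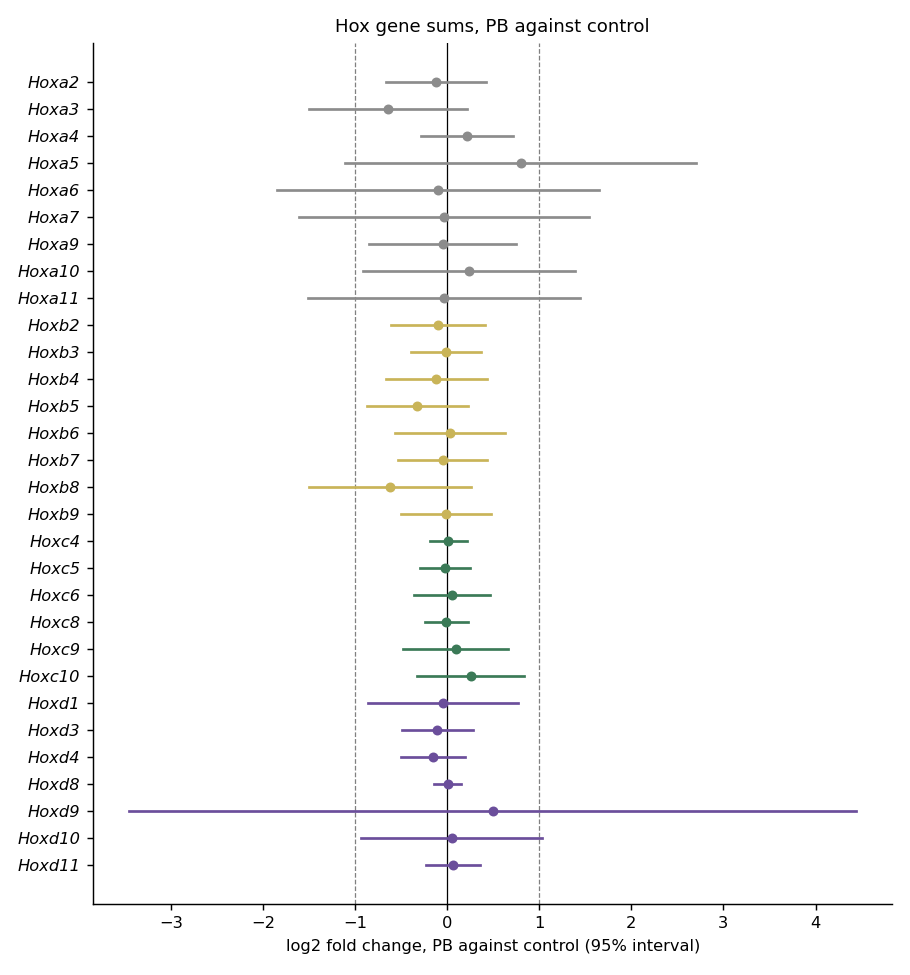
Log2 fold change of PB against control (horizontal axis) for 30 of the 31 Hox genes tested, with 95% intervals, ordered by cluster and paralogue number. Colours mark the 4 clusters and dashed lines a 2-fold change. All 30 intervals shown include 0, and that of Hoxd9 is by far the widest.

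The intervals that reached beyond 2-fold belonged to 10 genes, among them neighbours that share a transcribed locus. StringTie, the authors' assembler, shares out the reads of overlapping transcripts, and Hoxd9, Hoxd10 and Hoxd11 shared a locus of 11 transcripts, of which 6 were assembled. Most counts named Hoxd9 (92.3%) and Hoxd10 (87.2%) fell on assembled transcripts. A pair of these, MSTRG.10137.5 and MSTRG.10137.6, carried the name Hoxd10 but also covered Hoxd9.

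At this locus the 2 pools highest in Hoxd9 were the lowest in Hoxd10. Of 2 closely similar assembled transcripts named Hoxd9, MSTRG.10137.9 had 2665 counts in control 3 and MSTRG.10137.8 had 3039 counts in PB 2, and each had 0 counts in every other pool. In these pools Hoxd10 was at 20.3 and 22.5 CPM. The whole locus, in contrast, was at 59.8, 41.2 and 54.1 CPM in control and 57.5, 58.7 and 55.7 CPM in PB. Its coefficient of variation over the 6 pools was 12.5%, against 120% for Hoxd9 and 37.3% for Hoxd10.

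Summed over the locus, the log2 fold change was 0.15 (SE 0.13, edgeR adjusted p = 0.895), with an interval of the fold from 0.895 to 1.38. For Hoxd9 alone it was 0.49 (SE 1.65) and for Hoxd10 alone 0.05 (SE 0.41). Without control 3 the value of Hoxd9 was 4.49 (edgeR unadjusted p = 0.026, adjusted p = 0.947), and without PB 2 it was -0.90. The levels of Hoxd9 and Hoxd10 in TPM given above are therefore uncertain, since the locus varied less between pools than either gene.

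In HoxA, Hoxa3, Hoxa5 and Hoxa6 likewise shared a locus, of 8 transcripts. An assembled transcript named Hoxa3, MSTRG.15069.6, covered exons of all 3 genes and had 230, 333 and 1158 counts in control and 208, 335 and 198 counts in PB. This transcript held 42.0% of the counts named Hoxa3, and 65.6% in control 3. The levels of Hoxa3 and Hoxa5 in TPM given above are therefore uncertain as well. The pool with the most counts on this transcript, control 3, was the pool with the fewest on Hoxa5. The whole locus was at 12.1, 14.1 and 19.3 CPM in control and 11.9, 16.1 and 12.5 CPM in PB, and its coefficient of variation was 20.2%, against 48.3% for Hoxa3 and 49.1% for Hoxa5. For the locus the log2 fold change was -0.17 (SE 0.19, edgeR adjusted p = 0.910). With known transcripts only, that of Hoxa3 was -0.19.

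**Figure D4:**
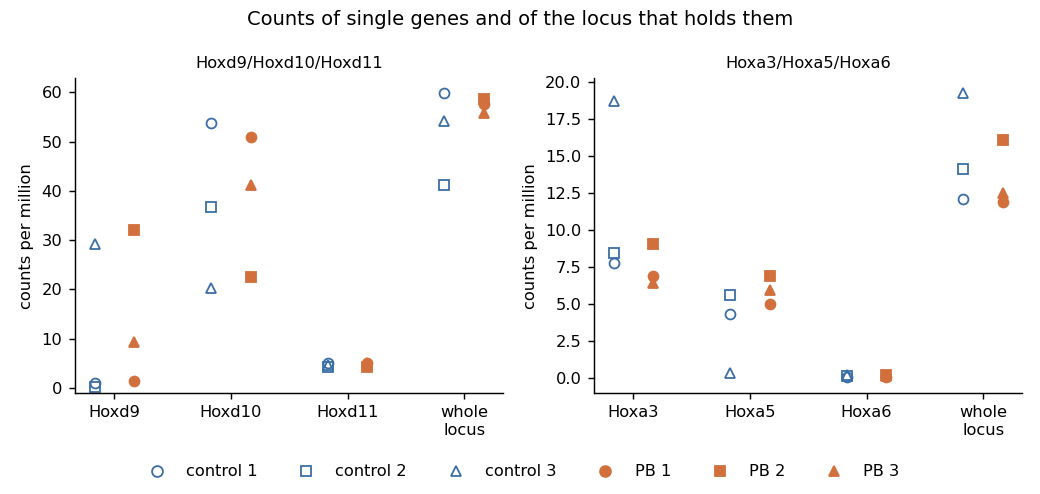
CPM of each gene of 2 shared loci and of the whole locus, for the 3 control pools (open) and the 3 PB pools (filled). Hoxd9 and Hoxd10 spread widely between pools of the same group, whereas the whole locus lies between 41.2 and 59.8 CPM.

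At the level of single transcripts, 59 of the 86 Hox transcripts passed the filter and 0 were called by edgeR, against 17 of 51227 (0.0332%). At an unadjusted p under 0.05, 0 of 59 passed, against 3.56% of all transcripts. The DESeq2 Wald test called 0 of 71 Hox transcripts, against 1.84% of all transcripts, with 3 at an unadjusted p under 0.05 (8.17% of all transcripts) and a smallest adjusted p of 0.163. Of the 59 transcripts tested by edgeR, 25 had a log2 fold change above 0 and 34 below 0 (50.9% and 49.1% of all transcripts), with a median of -0.04.

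The transcript with the smallest p above 0 was MSTRG.10137.10, named Hoxd9, with 30, 15 and 10 counts in control and 19, 52 and 986 counts in PB. PB 3 alone was high. Its log2 fold change was 4.09 (SE 1.66, edgeR adjusted p = 1.00). XM_006532291.2 of Hoxb3 had 56, 20 and 30 counts in control and 48, 13 and 584 counts in PB, and the log2 fold change of 2.42 fell to -0.21 without PB 3. NM_013555.4, the RefSeq transcript of Hoxd9, had 71, 14 and 75 counts in control and 123, 176 and 108 counts in PB, with groups that did not overlap (9.95% of all transcripts) and a log2 fold change of 1.25 (SE 0.77, edgeR adjusted p = 1.00).

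Below 0, the smallest p-values included those of XM_017316437.1 of Hoxc6 (log2 fold change -0.71) and MSTRG.15069.6 (-1.30), both at an edgeR adjusted p of 1.00. XM_017316437.1 had 39, 23 and 32 counts in control and 19, 21 and 20 counts in PB. Of the 55 Hox transcripts with at least 100 counts in some pool, 16 had 3 counts or fewer in another.

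The 8 Hox genes that did not pass the filter were Hoxa13, Hoxb1, Hoxb13, Hoxc11, Hoxc12, Hoxc13, Hoxd12 and Hoxd13. Hoxb1 lies at the 3′ end of its cluster, and the others belong to paralogue groups 11 to 13. Hoxc12 had 0 counts in all 6 pools, which allows a level of up to the floor of 3 counts, or 0.0321 CPM in the shallowest pool. Hoxb1, which marks a segment of the hindbrain, had 3 and 6 counts in PB 1 and PB 2 and 0 counts elsewhere. Hoxb13, a gene of the tail and prostate, had 3 and 9 counts in control 1 and control 2 and 0 counts elsewhere. Hoxc11, Hoxc13 and Hoxd12 stayed at 19 counts or fewer in every pool.

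Hoxa13 and Hoxd13, which pattern the genital tubercle and the digits, had more counts than this in control 3. Hoxa13 had 7, 9 and 46 counts in control and 0, 3 and 3 counts in PB. The groups did not overlap, and all PB pools were at or under the floor. Over the genes that passed the filter, the groups did not overlap in CPM for 10.7%. Hoxd13 had 6, 7 and 47 counts in control and 6, 0 and 16 counts in PB. Group 13 summed to 0.22, 0.25 and 0.91 TPM in control and 0.093, 0.034 and 0.15 TPM in PB. Without the filter on low counts, the edgeR unadjusted p of Hoxa13 was 0.022 and the adjusted p was 0.798, and in DESeq2 these were 0.0055 and 0.695.

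Hoxa11, which acts in the uterus and kidney, was also highest in control 3, at 0.34, 0.31 and 1.45 TPM in control and 0.54, 0.94 and 0.65 TPM in PB. Its antisense neighbour Hoxa11os had 32, 35 and 95 counts in control and 21, 45 and 30 counts in PB, and its log2 fold change moved from -0.84 to -0.05 without control 3. For Hoxa11 the log2 fold change was -0.03 (SE 0.62), and without control 3 it was 1.00 (edgeR unadjusted p = 0.026, adjusted p = 0.947). The libraries were directional, but whether counting used the strand is not given in the sources used here, so reads of this overlapping pair may not be fully separated.

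Of the 38 Hox genes with a count, 17 were highest in CPM in control 3 and 11 in PB 2, against 1 to 4 in each of the other pools. The share over all genes is not given here, so these numbers cannot be called particular to Hox genes. They include genes of the shared loci, such as Hoxa3 and Hoxd9, and genes below the filter, such as Hoxa13. Markers of the mesonephros and reproductive duct epithelium, which adjoin the fetal ovary, moved with control 3. Their summed level was 15.2, 14.9 and 27.3 TPM in control and 17.4, 20.5 and 15.3 TPM in PB, and control 3 was the highest pool for 7 of the 9 markers and PB 2 for the other 2. Cdh16, a cadherin of kidney and duct epithelium, was at 1.34, 1.57 and 7.81 TPM in control and 1.60, 1.94 and 1.05 TPM in PB. Wnt7a, a ligand of the Müllerian duct, was at 1.88 TPM in control 3 and between 0.28 and 0.83 TPM in the other pools. All 9 markers had counts and none was called. Of the 12 cell type lists, control 3 was also the highest pool for markers of endothelium (134 TPM, against 109 to 124 TPM elsewhere) and Sertoli cells (18.0 TPM, against 11.0 to 16.7 TPM). It was the lowest for those of red blood cells (33075 TPM, against 43335 to 65798 TPM), surface epithelium and mesothelium (169.8 TPM, against 179 to 289 TPM) and adrenal cortex (1.92 TPM, against 2.01 to 2.89 TPM). The part of these lists in the Hox values was not tested.

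**Figure D5:**
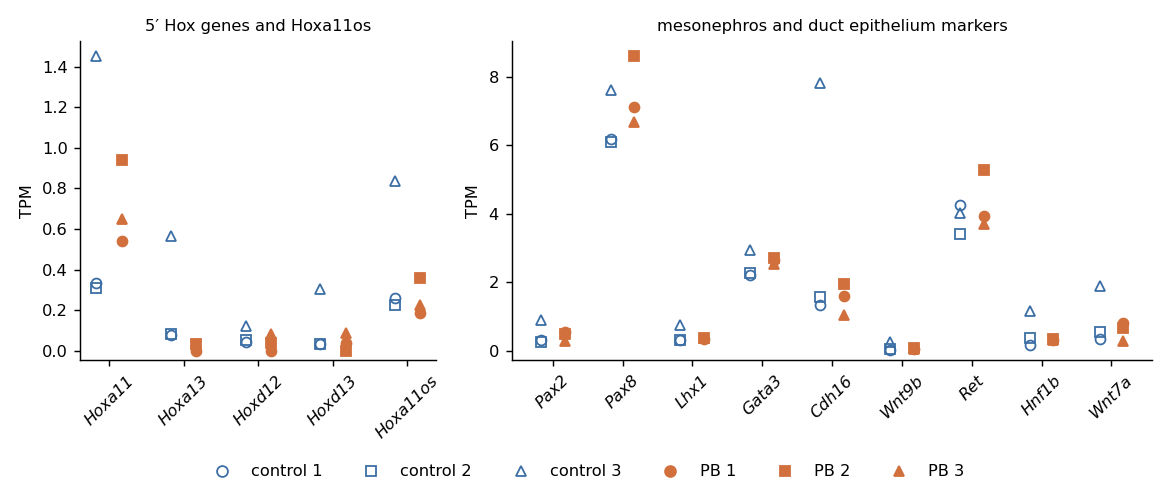
TPM of Hoxa11, Hoxa13, Hoxd12, Hoxd13 and Hoxa11os (left) and of 9 markers of mesonephros and duct epithelium (right) in the 3 control pools (open) and the 3 PB pools (filled). Control 3 (open triangle) is the highest pool for all 5 genes on the left, and for Cdh16 it reaches 7.81 TPM. Not all genes of groups 11 to 13 are shown. Of the others with a count, Hoxd11 was highest in PB 3 and Hoxc11 in PB 2. Hoxc13 was highest in control 1 and Hoxb13 in control 2.

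Genes that act with or on the Hox clusters were examined in 7 lists of 100 genes in all, of which 86 were tested. None was called by edgeR, 4 had an unadjusted p under 0.05 (4.46% of all genes tested), and the log2 fold change was above 0 for 44 and below 0 for 42, with a median of 0.01. All 9 TALE cofactors were present in the ovary. Pknox1 was at 15.9, 13.7 and 16.1 TPM in control and 19.0, 16.98 and 19.5 TPM in PB, with a log2 fold change of 0.16 (SE 0.05, edgeR adjusted p = 0.888). Of the 9 cofactors, 6 were above 0 and 3 below.

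Among the 11 tested genes of Polycomb repressive complex 2, which methylates histone H3 at lysine 27, 2 were above 0 and 9 below, with a median log2 fold change of -0.03. Phf19, which recruits the complex, was at 13.9, 9.46 and 14.5 TPM in control and 8.61, 10.3 and 9.41 TPM in PB, so that control 2 lay with the PB pools. Its log2 fold change was -0.38 (SE 0.12, edgeR adjusted p = 0.888). In Polycomb repressive complex 1, 6 of 11 were above 0, and Phc3 had the smallest p (log2 fold change 0.09). In the MLL and trithorax group, 4 of 11 were above 0, and Ash2l had the smallest p (log2 fold change -0.09).

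Of 10 upstream regulators, Cdx4 was at 0 counts in every pool and 9 were tested, 5 of them above 0. Cdx2, a caudal-type factor that activates Hox genes in the posterior embryo, was at 4.36, 2.39 and 4.21 TPM in control and 2.22, 2.65 and 3.01 TPM in PB, with overlapping groups and a log2 fold change of -0.57 (SE 0.23, edgeR adjusted p = 0.888). Of the genes flanking the clusters, 12 of the 17 tested were above 0. Evx2, next to Hoxd13, was at 0 counts in every pool, whereas Mtx2, next to Hoxd1, was at between 76.0 and 96.4 TPM. Ttll6, beyond Hoxb13, was at 0.067 to 0.070 TPM in control and 0.089 to 0.28 TPM in PB, with a log2 fold change of 1.13 (SE 0.37, edgeR adjusted p = 0.888). Of the other genes inside the cluster spans, 18 of 29 were tested, and 9 of these were above 0.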

How the data were processed

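Poly(A) RNA was sequenced with a directional kit. According to the submitters' processing notes, the authors used bcl2fastq 2.17.1.14, aligned reads to mm10 with HISAT2 2.1.0, assembled transcripts with StringTie 1.3.5 on RefSeq and compared groups with DESeq2 1.30.0. The authors deposited unnormalized counts per transcript, made by prepDE from coverage. Their comparison table holds log2 fold changes and p-values, which were not used, and 6 columns of normalized values, also not used. Samples were grouped by their titles, since the series design text describes all 6 libraries as exposed.

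Counts of the 114412 transcripts were summed by gene name over both known and assembled transcripts. The 1490 transcripts without a name held 3.05% to 4.49% of the counts of a pool and were left out of the sums. TPM was computed from counts and exon lengths. Sums and transcripts were tested with edgeR 4.0.16 (limma 3.58.1, R 4.3.3) after TMM scaling and filterByExpr (minimum count 10, minimum total 15), with the quasi-likelihood test and Benjamini-Hochberg adjustment over the whole table. Intervals are 95% intervals of the fit. The p-values weigh the difference between the groups against the spread between these pools, which is estimated partly from all genes together. DESeq2 1.42.0 was an alternative. Sequences and 3′ untranslated regions came from RefSeq and GENCODE tables on GRCm38. No pools were duplicates.

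The members and lists were chosen with earlier results of these data known. Pool values are given for the 12 Hox genes of highest mean TPM and the 3 of smallest p in each direction, for the 3 such transcripts in each direction, for the gene with the smallest p in each list, and for the 3 most abundant other genes of the spans. Some items that this rule selects are not reported here. Other genes named were chosen after their values were seen.

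The edgeR test was tested on simulated data, with an adjusted p of at most 0.05 and no fold-change threshold. Of 200 genes changed 2-fold among 19435, 129 (64.5%) passed, with 12 false calls. Of 200 changed 4-fold, 157 (78.5%) passed, with 6 false calls. The changed genes were drawn from all genes tested. These shares are therefore not those of the calls made here, which also needed a 2-fold change, nor of the Hox genes alone.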

Additional observations from a re-analysis of the deposited data

How the results depend on the processing

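The number of Hox genes, Hox transcripts and list genes called was 0 in edgeR, and it stayed 0 with size factors in place of TMM, the Wald test of DESeq2, unfiltered counts, a filter of 10 counts in every pool of either group, an adjusted p of at most 0.1, no fold-change threshold and without each pool in turn (range 0 to 0). It was also 0 for genes and lists with known transcripts only, and for genes without transcripts over more than 1 Hox gene, per StringTie locus, and without the opposite-strand transcript of Hoxc9, which was chosen after seeing the data. The smallest adjusted p among these was 0.163 for Hox transcripts (DESeq2), 0.342 for Hox genes and 0.157 for list genes (both without PB 2).

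With the replicate number as a block, 0 Hox genes, 0 Hox transcripts and 0 list genes were called. The numbers were taken from the sample titles. Deviations from the group mean, correlated over genes, gave 0.092, 0.24 and 0.060 for same-numbered pools of the 2 groups. For differently numbered pools the correlations ran from -0.238 to 0.155. These few values cannot decide whether the numbers pair the pools.

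The share of HoxC in the summed level was 42.9% with known transcripts only, against 40.3% with all. The log2 fold change changed sign without the filter for Hoxd8 (-0.00049) and with known transcripts only for Phc3 (-0.12). When each pool was left out in turn, it changed sign for 11 of the 28 genes and transcripts chosen by the rule for names, and ranged from -0.017 to 0.034 for Hoxd8, -0.077 to 0.056 for Hoxc8, -0.24 to 0.43 for Hoxd10, -0.098 to 0.074 for Hoxc5, -0.043 to 0.057 for Hoxc4, -0.90 to 4.49 for Hoxd9, -0.074 to 0.45 for Hoxc10, -0.069 to 0.25 for Hoxc6, -0.19 to 0.28 for Hoxc9, -0.21 to 0.13 for Hoxb7 and -0.21 to 2.97 for XM_006532291.2. Of all 31 Hox genes tested, the log2 fold change took both signs over these fits for 23. The cause was not tested. The 8 Hox genes below the filter, each with 47 counts or fewer in every pool, were not tested in the edgeR fit with the filter.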
